A study of Dirofilaria immitis with 5 samples.

Results

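The microRNA miR-57 was followed through small RNA that live Dirofilaria immitis, the heartworm of dogs, released into culture medium. Of the 1228 distinct sequences in the deposited table, the 4 whose name carries the miR number 57 were taken, and 2 of these reached 10 reads in a library. The series had 5 libraries, 1 each for the medium of microfilariae, of third-stage larvae (L3), of fourth-stage larvae (L4) and of adult females and males, with no strain, treatment, age or worm number in the labels. With 1 library per stage or sex there was no spread between replicates, so no test across samples and no p-value could be given, and every comparison below is between libraries. The table held 727018 reads of microfilariae, 34448 of L3, 326187 of L4, 376070 of adult females and 32983 of adult males. A share is the percentage of a library's reads in this table. Intervals in parentheses are exact 95% binomial intervals (Clopper-Pearson for a share, conditional on the summed reads for a ratio). They cover counting error only, and no spread between worms or libraries. Reads amplified by PCR without molecular identifiers are not independent molecules, so the intervals may be too narrow even for counting error.

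A microRNA guides silencing proteins to messenger RNAs, and its seed, bases 2 to 8 from the 5′ end, does most of the target recognition. miR-57 belongs by its 5′ end to the ancient miR-10 family, whose vertebrate genes lie within the Hox clusters. In Caenorhabditis elegans, mir-57 acts in the patterning of the posterior body together with the Hox gene nob-1. The nematode miR-100/miR-51 group is related to miR-57 in sequence and has another seed.

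The 4 sequences are given as the table prints them, as DNA letters, to show what the rows share and where they part. Capitals mark the seed in the 3 rows from the 5′ arm, and the row from the other arm of the hairpin has none marked. The prefixes bma and asu are the miRNA database's codes for Brugia malayi and Ascaris suum, which are other parasitic nematodes, and the suffixes are not explained in the file.
bma-miR-57: tACCCTGTggtaccgagctgtgtct
asu-miR-57-5p_1ss24TG: tACCCTGTagtaccgagctgtgtgt
asu-miR-57-5p_R-2: tACCCTGTagtaccgagctgtgt
bma-mir-57-p3_1ss5GA: acacaatcggtcactgggtaa

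All 3 rows of the 5′ arm carried the same seed. The asu-miR-57-5p_1ss24TG row, called the variant below, had the 25 nt length of bma-miR-57 and differed from it at 2 bases, G9A and C24G, with positions counted from 1 at the 5′ end and the bma-miR-57 base given first. The 23 nt row asu-miR-57-5p_R-2 was the variant without its last 2 bases and differed from bma-miR-57 by G9A alone over the 23 bases compared. With the bases that differ in capitals, the 3 rows read as follows.
bma-miR-57: taccctgtGgtaccgagctgtgtCt
asu-miR-57-5p_1ss24TG: taccctgtAgtaccgagctgtgtGt
asu-miR-57-5p_R-2: taccctgtAgtaccgagctgtgt
None of the 4 rows was listed with a match in the dog genome, whereas 56 of the 1228 rows were. No other row shared the first 18 bases of bma-miR-57, so the table gave a single length form of it.

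bma-miR-57 was read in every library and was most abundant, by share, in the medium of microfilariae. It had 23516 reads in microfilariae, 68 in L3, 2403 in L4, 2821 in adult females and 137 in adult males. These reads made up 3.23% (3.19 to 3.28) of the microfilarial table, 0.197% (0.153 to 0.250) of the L3 table, 0.737% (0.708 to 0.767) of the L4 table, 0.750% (0.723 to 0.778) of the female table and 0.415% (0.349 to 0.491) of the male table. Microfilariae thus held 81.2% of all 28945 reads of the row, in the library with the most reads. In order of share, microfilariae were followed by adult females, fourth-stage larvae, adult males and third-stage larvae, and only the female and fourth-stage shares had overlapping intervals.

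**Figure D1:**
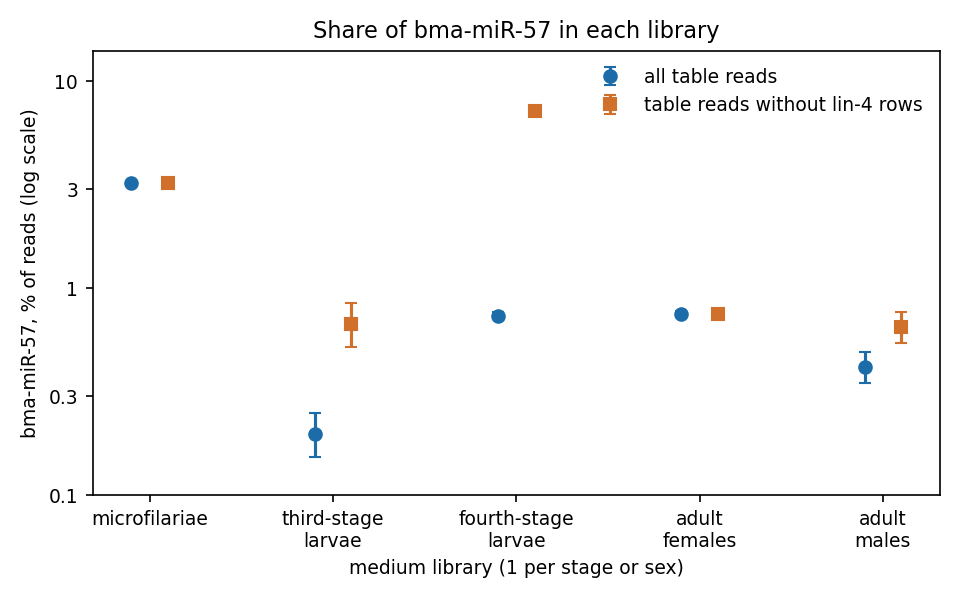
Share of bma-miR-57 on a log scale in each of the 5 medium libraries, as a percentage of all table reads (circles) and of table reads without the lin-4 rows (squares), with exact 95% intervals. Of all table reads the share was highest in microfilariae (3.23%) and lowest in third-stage larvae (0.197%), and without lin-4 it was highest in fourth-stage larvae (7.13%).

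The rank of bma-miR-57 set the fourth-stage library beside the microfilarial one. It was the 6th most abundant row of both microfilariae and fourth-stage larvae, and the 19th of third-stage larvae, the 18th of adult females and the 22nd of adult males. In microfilariae it stood between bma-miR-100c_R+1_1ss12CT at 4.46% and bma-bantam_R+1, of a family that acts in growth and cell survival in flies, at 2.41%. In fourth-stage larvae its neighbours were bma-miR-100b_R+1 at 0.778% (0.748 to 0.809) and bma-miR-100d_R+1 at 0.711% (0.683 to 0.741), and its own interval overlapped both. In third-stage larvae it lay between prd-let-7-5p_1ss12GA with 77 reads and bma-miR-50 with 65 reads. In adult females the neighbours were the candidate PC-5p-799_1592 with 4787 reads and bma-miR-45_R-1 with 2763 reads. In adult males they were bma-miR-5364 with 149 reads and the candidate PC-3p-5721_189 with 119 reads, each with an interval that overlapped that of bma-miR-57.

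The fourth-stage table was taken up mostly by lin-4, the miRNA that times larval cell fates in C. elegans. The 4 lin-4 rows held 0.00468% of the reads in microfilariae, 70.6% in L3, 89.7% in L4, 0.247% in adult females and 35.8% in adult males. Of the reads left without lin-4, bma-miR-57 made up 3.23% (3.19 to 3.28) in microfilariae, 0.672% (0.522 to 0.851) in L3, 7.13% (6.86 to 7.41) in L4, 0.752% (0.725 to 0.780) in adult females and 0.647% (0.543 to 0.764) in adult males. On this base, which was chosen after the data were seen, the fourth-stage library stood highest, at 2.20-fold (2.11 to 2.30) the microfilarial share, and the intervals of third-stage larvae, females and males overlapped. The authors' normalized signal also placed fourth-stage larvae highest, with 2144 for microfilariae, 799 for L3, 5516 for L4, 586 for females and 328 for males. Of all mappable reads, the row made up 0.654% in microfilariae, 0.00172% in L3, 0.0374% in L4, 0.0913% in females and 0.00416% in males, in the same order as the shares of the table.

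The 5 comparisons followed the life cycle. Third-stage larvae, the infective form passed on by mosquitoes, had 0.197% bma-miR-57 reads, against 3.23% in microfilariae, the blood-borne offspring of the adults. The share was 16.4-fold (12.9 to 21.1) lower in third-stage larvae, and it was lower there under every scaling tried, by 2.68-fold with the authors' library size parameter and by 381-fold per mappable read. Among the 151 rows that reached 10 reads in 1 of these libraries, 31.8% were at least 2-fold lower in third-stage larvae. A row with 0 reads there counted as lower only if its microfilarial share was at least 2-fold above 0.00871%, the share of 3 counts. The 31.8% is therefore a lower limit. In third-stage larvae 37 rows reached 10 reads, and in microfilariae 144 did.

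Fourth-stage larvae, which arise from the third stage by a molt within the host, had 2403 reads, against 68 reads in third-stage larvae. The share was 3.73-fold (2.93 to 4.82) higher in fourth-stage larvae, where 6.06% of 66 rows were at least 2-fold higher and 50.0% were at least 2-fold lower. bma-miR-57 was thus 1 of 4 rows past 2-fold in that direction by share. The ratio was higher under each scaling that changed it by more than its interval, from 4.91-fold with TMM factors to 21.8-fold per mappable read. The authors set aside reads over 25 nt, the length of this row, and these were 22.5% of the reads with an adapter in L4 and 38.2% in L3. Their part in the difference was not tested.

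Adult females and fourth-stage larvae did not differ beyond counting error by share, at 0.750% in females and 0.737% in fourth-stage larvae, a ratio of 1.02 (0.964 to 1.08). Among 148 rows, 85.1% were at least 2-fold higher in females and 11.5% at least 2-fold lower. The direction turned with the scaling. The row was 4.94-fold lower in females with TMM factors, 9.41-fold lower with the authors' parameter and 2.44-fold higher per mappable read.

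Adult males had 0.415% bma-miR-57 reads, against 0.737% in fourth-stage larvae. The share was 1.77-fold (1.49 to 2.12) lower in males, where 10.4% of 77 rows were at least 2-fold lower and 67.5% at least 2-fold higher. bma-miR-57 was in neither set by share. The 5 other scalings drawn in the plot of ratios gave larger differences in the same direction, from 8.99-fold per mappable read to 16.8-fold with the authors' parameter.

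Between the sexes, adult males had 0.415% bma-miR-57 reads, against 0.750% in adult females, which was 1.81-fold (1.52 to 2.16) lower in males. Of 140 rows, 33.6% were at least 2-fold lower in males and 20.0% at least 2-fold higher, and bma-miR-57 was in neither set by share. It was 21.9-fold lower in males per mappable read and 1.15-fold lower with the most abundant row of each library left out of the totals. With all 4 rows of miR number 57 summed, males stood 1.45-fold below females, since the variant's reads all fell in males. Of the reads with an adapter, those over 25 nt made up 5.76% in males and 48.9% in females, and reads under 18 nt made up 43.8% in males and 12.5% in females. Their part in the difference was not tested.

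**Figure D2:**
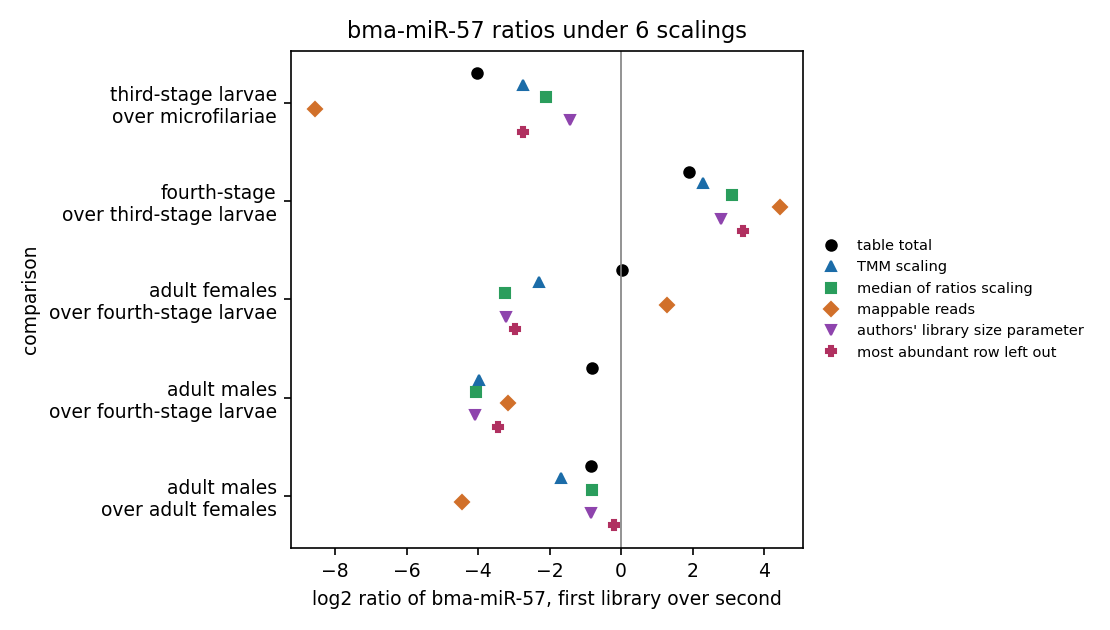
The log2 ratio of bma-miR-57 in the 5 comparisons, first-named library over second, under scaling by the table total and 5 other scalings, each point being 1 scaling. Third-stage larvae lay below microfilariae, fourth-stage above third-stage larvae, and males below fourth-stage larvae and females at every point, while females over fourth-stage larvae ran from -3.25 to 1.29.

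The variant asu-miR-57-5p_1ss24TG was read in adult males alone. It had 31 reads in males and 0 reads in microfilariae, L3, L4 and females. This was 0.0940% (0.0639 to 0.133) of the male table, rank 38 of its rows, in the library with the fewest table reads. Of the 53 rows with 10 or more reads in males, 2 (3.77%) had 0 reads in every other library, the other being bma-mir-5838-1-p5 with 13 reads. By share the variant was at least 228-fold higher in males than in microfilariae, at least 10.8-fold higher than in third-stage larvae, at least 102-fold higher than in fourth-stage larvae and at least 118-fold higher than in females, with a 0 set to 3 counts per library. These are lower limits that leave out the counting error of the 31 male reads. Rows at least 2-fold higher in males made up 27.8% of those compared with microfilariae, 66.7% with third-stage larvae, 67.5% with fourth-stage larvae and 20.0% with females. Per mappable read the lower limits ran from 9.70-fold against females to 20.2-fold against fourth-stage larvae.

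A share within miR-57 does not depend on the scaling between libraries. In males the variant made up 18.5% (12.9 to 25.2) of the 168 reads of both measured rows. In microfilariae it was 0 of 23516 reads, which allows a share of up to 0.0128%, and in third-stage larvae 0 of 68 reads, which allows up to 4.41%. In fourth-stage larvae 0 of 2403 reads allow up to 0.125%, and in females 0 of 2821 reads allow up to 0.106%. All 4 limits lay below the male interval. The variant counts among the rows with 10 or more reads through its male reads alone, so its place in males is a description and not a test. At the male ratio of variant to bma-miR-57, the microfilarial library would hold 5321 reads of the variant and the third-stage library 15.4.

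**Figure D3:**
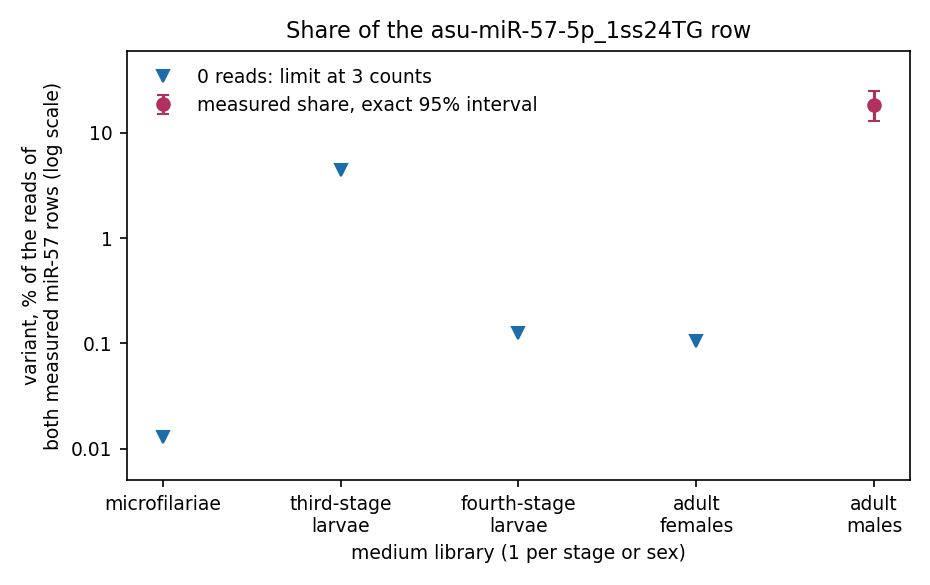
Share of the variant among the reads of both measured miR-57 rows, on a log scale, for each library. The male point (18.5%) has its exact 95% interval, and the triangles mark the limit that 0 reads allow, which is highest in third-stage larvae (4.41%) and lowest in microfilariae (0.0128%).

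The 23 nt row asu-miR-57-5p_R-2, which shares the G9A change with the variant, had 3 reads in males, 1 in microfilariae and 0 in the other libraries. Together the 2 rows with this change gave 34 of 171 reads of the 5′ arm in males, or 19.9% (14.2 to 26.7), and 1 of 23517 reads in microfilariae, or 0.00425% (0.000108 to 0.0237). Of these 34 male reads 31 were those of the variant itself. The share with the 23 nt row added is therefore not independent of the share of the 25 nt row alone.

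Other near-identical rows were counted for comparison. Of 23 pairs of rows that differed at 2 bases over their shared length, 5 had 10 or more reads of the pair in every library. The variant was the only scarcer row among the 23 pairs with 10 or more reads in males. In those 5 pairs the scarcer row had its highest share in males in 3 pairs and in females in 2. Outside the miR-57 pair these places rested on 1 or 2 reads. In males they were 1 read each of asu-lin-4-5p_1ss21AG and str-miR-92-3p_1ss11GA. In females they were 2 reads of asu-miR-100c-5p_1ss19CT and 1 of bma-miR-100c_R+1_2ss12CT22GA. The share of the scarcer row in males was highest, at 18.5%, for the miR-57 pair. Of the 25 pairs that differed at 1 base, 11 had 10 or more reads in every library, and the scarcer row reached its highest share in males in 3 of them and in females in 5. The 5 of these pairs with the most reads included lin-4, where asu-lin-4-5p made up 0.0847% of the pair in males, with 10 reads beside 11792 of bma-lin-4. The candidate PC-5p-700_1781 was the scarcer partner of bma-miR-100c_R+1_1ss12CT and held 9.15% of the pair in microfilariae, 4.90% in L3, 5.15% in L4, 11.0% in females and 9.23% in males, so it was read in every library where its partner was. str-miR-71-5p_R+1_1ss9AC held 0.576% of its pair with asu-miR-71-5p_R-2 in males, from 3 reads, and 0.0729% in microfilariae, from 29 reads. cel-miR-81-3p_R-2, with 1 read each in microfilariae, females and males, held 0.257% of its pair with bma-bantam_R+1 in males. The remaining pair was that of asu-miR-57-5p_R-2, at 2.14% of its pair with bma-miR-57 in males and 0.00425% in microfilariae. In the 3 pairs at 1 base that were highest in males, the scarcer row thus had at most 3 male reads. A pair chosen after its values were seen, cbn-miR-87_1ss22CG with asu-miR-87b-3p, resembled the miR-57 pair, with 6 of 56 reads (10.7%) in males and 1 read each in microfilariae (0.0511%) and females (0.278%).

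The other arm of the hairpin, which is usually degraded when the guide strand is loaded, was scarce. bma-mir-57-p3_1ss5GA had 7 reads in microfilariae, 3 in females and 0 in L3, L4 and males. Reads of bma-miR-57 outnumbered it 3359 to 1 (1630 to 8357) in microfilariae and 940.3 to 1 (321 to 4562) in females. The 2 intervals overlapped. In males 0 reads beside 137, set to 3 counts, give a limit of 2.19% of the 2 arms. The arm ratio of males therefore could not be told from that of the other libraries at this depth. Paired by RNAduplex, the 21 nt arm and bma-miR-57 formed 18 base pairs over bases 1 to 24 of bma-miR-57 with a predicted energy of -22.8 kcal/mol. The variant against the same arm also formed 18, at -21.5 kcal/mol, with base 9 unpaired, where that of bma-miR-57 was paired. No arm that would match the variant itself was looked for beyond the rows named above.

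The seed was shared by 6 rows of the table in all, the 3 of the 5′ arm of miR-57 and 3 predicted candidates. Of the candidates 2 are shown, because their summed reads outnumber those of miR-57 in third-stage larvae and in both sexes.
PC-5p-799_1592: gACCCTGTtgagcttgactct
PC-3p-2841_427: gACCCTGTtgagcttgactctagt
Here capitals again mark the seed. The base before the seed differed between these candidates and miR-57, and the longer candidate was the shorter with further bases at its 3′ end. The table gives dog genome matches for both, and whether they are miRNAs was not tested. The third candidate, PC-5p-1149363_1, had 1 read in microfilariae and 1 in females.

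The balance between miR-57 and the candidates differed between the libraries. miR-57 rows made up 87.6% (87.2 to 88.0) of the seed-sharing reads in microfilariae, 44.7% (36.7 to 53.0) in L3, 77.1% (75.6 to 78.6) in L4, 33.3% (32.3 to 34.3) in females and 8.52% (7.33 to 9.82) in males. The candidates summed to 3325 reads in microfilariae, 84 in L3, 712 in L4, 5648 in females and 1837 in males. In males they held 5.57% of the table, against 0.518% for the miR-57 rows. As a share of the table, the sum of all rows with this seed was highest in males, at 6.09%, and was 3.69% in microfilariae. In males 1837 of the 2008 reads of this sum were of the candidates, so its height there is not that of miR-57. Nor is it known to be a sum of miRNAs, since the candidates were not tested for that. This order depended on the scaling. Of the mappable reads the sum was 0.0610% in males and 0.747% in microfilariae, and divided by the authors' library size parameter it was 4803 in males and 7151 in fourth-stage larvae.

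**Figure D4:**
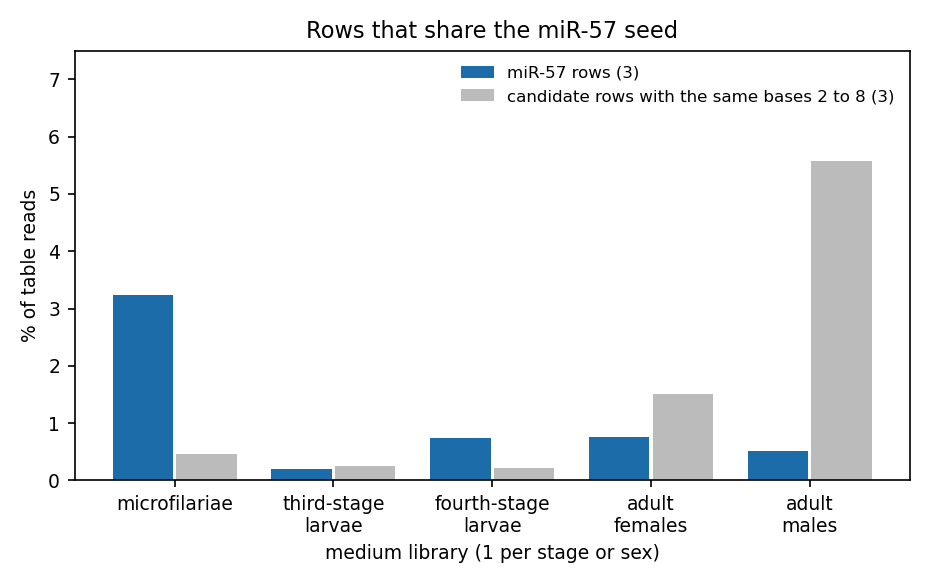
Percentage of table reads in each library for the 3 miR-57 rows of the 5′ arm and for the 3 candidates with the same bases 2 to 8. The miR-57 bar is the taller in microfilariae (3.23%) and fourth-stage larvae (0.737%), and the candidate bar in third-stage larvae, females and males (5.57%). Whether the candidates are miRNAs was not tested.

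The miR-100/miR-51 group was taken by name, as rows called miR-10, miR-51 to miR-56, miR-99, miR-100 or miR-993. It had 17 rows, of which 9 reached 10 reads in a library, and 0 carried the miR-57 seed. No row was called miR-10 or miR-99, so this says nothing about the seed of those miRNAs. Only 8 of the 17 had ACCCGTA as bases 2 to 8, and the other 9 included hco-miR-993_R-1_2ss11GT22AG and rows from the other arm of the hairpin. Its most abundant rows are printed to show that they begin much like miR-57 but carry another seed, given in capitals.
bma-miR-100d_R+1: tACCCGTAgctccgaatatgtgt
bma-miR-100a_R+1: aACCCGTAgtttcgaacatgtgt
bma-miR-100b_R+1: aACCCGTAgatccgaacttgtgt
bma-miR-100c_R+1_1ss12CT: aACCCGTAgaattgaaatcgtgt
Since both groups were read in the same libraries, their ratio does not depend on the scaling between libraries. Per 100 reads of the miR-100/miR-51 group there were 4.55 (4.49 to 4.61) reads of bma-miR-57 in microfilariae, 2.64 (2.04 to 3.35) in L3, 26.4 (25.2 to 27.6) in L4, 1.19 (1.14 to 1.23) in females and 1.32 (1.11 to 1.57) in males. The fourth-stage library stood above the others in this ratio and the intervals of the sexes overlapped.

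Single rows of the group differed in this respect. Per 100 reads of bma-miR-100d_R+1 there were 10.2 reads of bma-miR-57 in microfilariae, 12.0 in L3, 104 in L4, 3.35 in females and 2.80 in males. Against bma-miR-100c_R+1_1ss12CT the ratio was 15.5 per 100 in males and 38.0 in females, while against bma-miR-100b_R+1 it was 13.4 in males and 4.45 in females. Whether bma-miR-57 was higher or lower in males therefore depended on which row of the group it was set against. In the step from third-stage to fourth-stage larvae, 0 of 5 measured rows of the group were at least 2-fold higher in fourth-stage larvae and 5 were at least 2-fold lower, where 6.06% of all 66 rows were higher and 50.0% lower. The group's median log2 ratio of -1.21 lay near the -1.02 of all rows, and that of bma-miR-57 was 1.90. In third-stage larvae against microfilariae, 5 of 8 rows of the group were at least 2-fold lower, the 4 printed above and hco-miR-993_R-1_2ss11GT22AG, where 31.8% of all 151 rows were. The median log2 ratio of the 8 rows was -2.53, beside -4.03 for bma-miR-57. This median takes in rows set to equal shares, named below, and asu-miR-100a-2-3p, with 1 read in third-stage larvae. Against a ratio of 0.0610 for bma-miR-57, hco-miR-993_R-1_2ss11GT22AG had 0.0411, from 3 third-stage reads, and bma-miR-100d_R+1 had 0.0517. Above it lay bma-miR-100c_R+1_1ss12CT, with 0.0631, then bma-miR-100a_R+1 and bma-miR-100b_R+1, with 0.104 and 0.289. The ratio of bma-miR-57 thus lay within the range of these 5 rows. Over all rows the median was 0, which does not show that a typical row was unchanged. Rows with 0 reads in third-stage larvae were set to equal shares where 3 counts would have exceeded the microfilarial share. In the group this held for bma-mir-100a-p3 and asu-miR-100a-5p_R+1.

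bma-miR-57 also led its length class. Of the 126 rows of 25 nt, the longest kept by the authors, it was the most abundant in every library. It made up 78.7% (78.2 to 79.2) of their reads in microfilariae, 60.2% (50.5 to 69.3) in L3, 92.0% (90.9 to 93.0) in L4, 67.7% (66.3 to 69.1) in females and 48.8% (42.8 to 54.8) in males.

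Rows with a pattern like that of bma-miR-57 were sought by Pearson's r over the 5 libraries, on log2 shares with 0.5 reads added, as a description with no p because 5 libraries that share their normalization are too few. Of 62 other rows with 10 or more reads in at least 3 libraries, 0 had an r over 0.9, and the median r was 0.30. The highest was 0.82, for the candidate PC-5p-8534_111 with 355 reads in microfilariae, 3 in L3, 28 in L4, 84 in females and 2 in males. It was followed by asu-miR-46-5p_1ss11TC and the candidate PC-5p-717_1743 (both 0.75), asu-miR-86-5p and the candidate PC-5p-1987_638 (both 0.72), the candidate PC-3p-408_2810 (0.71), cel-miR-34-5p_R+1_1ss1AT (0.69), of a stress-related family in animals, and asu-miR-71-5p_R-2 (0.67), of a miRNA that acts in longevity in C. elegans. All 8 had their largest read count in microfilariae except PC-5p-1987_638, with 2105 reads in females and 1834 in microfilariae. Among the 8, PC-5p-717_1743 alone was listed with a match in the dog genome. The least alike were bma-miR-5364 at -0.91 and, of the 4 lin-4 rows, bma-lin-4 and asu-lin-4-5p at -0.85. Shares within a library are not independent. The lin-4 rows held 70.6% of the reads in L3 and 89.7% in L4, which leaves less for every other row. Their part in these r values was not tested. Under TMM scaling 4 of the 8 stayed among the most alike, and under Spearman's rho 3 did.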

How the data were processed

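Small RNA from concentrated medium of cultured worms was extracted with a Norgen Biotek kit and made into Illumina TruSeq small RNA libraries, per the labels' protocols. The tools bcl2fastq 1.8.4 and Bowtie are named in the submitters' processing notes. Per the file headers, the authors removed the 3′ adapter and set aside reads under 18 nt or over 25 nt. The genome build, aligner settings and database of miRNAs were not given in the sources used here. The deposited raw columns held estimated counts, expected counts per distinct sequence, with 114 fractional values, 0 of them in the miR-57 rows. They were rounded to whole numbers. The deposited normalized signal was the raw count divided by the authors' library size parameter, with a 0 written as 0.001, which was checked for every value. Of the table's lines, 1 is not analysed here.

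Rows were taken by name. The members and lists were chosen with earlier results of these data known. Named rows beyond miR-57 were those with the 8 highest and 3 lowest r to bma-miR-57, the rows with its seed, the 4 most abundant of the miR-100/miR-51 group, its neighbours in rank, and the 5 near-identical pairs with most reads. Shares, exact intervals and ratios were computed in Python 3.11.15 with scipy 1.17.1. Rows at 10 or more reads in 1 of the libraries compared were counted at 2-fold, with a 0 set to 3 counts. Where that limit passed equal shares, the row was counted as unchanged. Shares of rows at 2-fold are therefore lower limits where a row had 0 reads in a library with few reads. TMM factors came from edgeR 4.0.16, used for scaling only, and duplexes from ViennaRNA 2.7.2. The ratio script was tested on simulated data.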

Additional observations from a re-analysis of the deposited data

How the results depend on the processing

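The log2 ratios of bma-miR-57 by table share were -4.03 for third-stage larvae over microfilariae, 1.90 for fourth-stage over third-stage larvae, 0.03 for females over fourth-stage larvae, -0.83 for males over fourth-stage larvae and -0.85 for males over females. In that order they became -2.75, 2.30, -2.31, -3.99 and -1.68 with TMM scaling. They became -2.10, 3.11, -3.25, -4.06 and -0.81 with median of ratios scaling, and -8.57, 4.45, 1.29, -3.17 and -4.46 per mappable read. With the authors' library size parameter they were -1.42, 2.79, -3.23, -4.07 and -0.84, and with the most abundant row of either library left out -2.74, 3.40, -2.97, -3.46 and -0.21. Each scaling shifts the log2 ratio of every row alike, by up to -4.54 and 2.61. Of these comparisons, females over fourth-stage larvae alone turned, and the cause was not tested. A low count filter moved no ratio beyond its interval. Summing all rows of miR number 57 gave -0.51 for males over fourth-stage larvae and -0.53 for males over females, through the reads of the variant. The variant's 18.5% of the male miR-57 reads became 19.9% with the 23 nt row added, a setting chosen after seeing the data. Set against bma-miR-57 alone, its reads gave 22.6%, a ratio and not a share. Of the 8 rows most like bma-miR-57, TMM scaling kept 4 and Spearman's rho 3. No replicate could be left out with 1 library per group. No paired analysis was possible because each group had 1 library. Depth limits third-stage larvae and males most, where 0 reads set to 3 counts give limits of 0.00871% and 0.00910% of the table.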
